A study of Mus musculus with 24 samples.

Results

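Leukocytes leave the blood by rolling on selectins, stopping on integrin ligands and crossing the vessel wall, and 9 genes of that sequence were followed in reperfused mouse myocardium. They comprised 4 endothelial ligands (Sele, Selp, Icam1 and Vcam1) and 5 leukocyte partners (Selplg, Itgb2, Itgal, Itgam and Itga4). The genes were taken by symbol, and all 9 were among the 15875 genes that could be tested. The samples were the infarct area of the anterior heart wall of male C57BL6/J mice taken when a coronary artery had been occluded for 45 min and then reopened for 24, 48 or 168 h. At each time 4 arrays came from mice given vehicle (PBS with bovine serum albumin) and 4 from mice given recombinant IGF1, an insulin-like growth factor. IGF1 was injected under the skin as a bolus of 40 ng/g when reperfusion began, and a micro-osmotic pump then delivered 1 µg/g per day for the first 3 days, so the pump period had ended before 168 h. The sample labels give the coronary occlusion for the vehicle mice too, whereas the design text calls the controls sham-operated. The sample labels were followed here, and no uninjured baseline was analysed here. Ages were not given in the sources used here, and the labels number the samples of a group without naming animals, so each p-value reflects only how far these samples scatter, which may be technical.

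In the textbook sequence, E-selectin and P-selectin on activated endothelium capture leukocytes through glycosylated ligands, of which the protein encoded by Selplg (PSGL-1) is the best known. The beta2 integrins LFA-1 (Itgal with Itgb2) and Mac-1 (Itgam with Itgb2) bind ICAM-1, and the integrin VLA-4 (Itga4 with Itgb1) binds VCAM-1. After myocardial infarction neutrophils are recruited early and monocytes and their descendants later.

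All 24 arrays were 1-colour Agilent arrays. A level is the log2 signal minus that of the array's 75th percentile, so 0 is the level of a fairly bright probe, and levels of different probes are not compared with each other. Spots well above background made up 52.8% to 62.9% of each array, and no gene spot was saturated. Within a group, the arrays' correlation over all tested genes was 0.98 to 0.99. The arrays lay on 4 slides. IGF1 arrays were on slides 2 and 3 at 48 h and on slides 1 and 4 at 168 h. The vehicle arrays of these times shared only slide 4. A difference between 48 and 168 h can therefore also be a difference between slides. The 10 cardiomyocyte markers listed were all measured, with a mean level per array between 7.02 and 7.75 and the 12 endothelial markers listed were also all measured. These are bulk samples, in which fewer cells of a type and less RNA per cell cannot be told apart.

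The plot of levels on each array shows the courses that the sections below describe. Sele and Selp fell steeply by 168 h, and Vcam1 rose between 24 and 48 h. Selplg and Itgal declined by 168 h in both treatments, while the decline of Itgb2 passed the test in vehicle hearts only. Itga4 was the only member that passed the test between IGF1 and vehicle at 24 h.

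**Figure D1:**
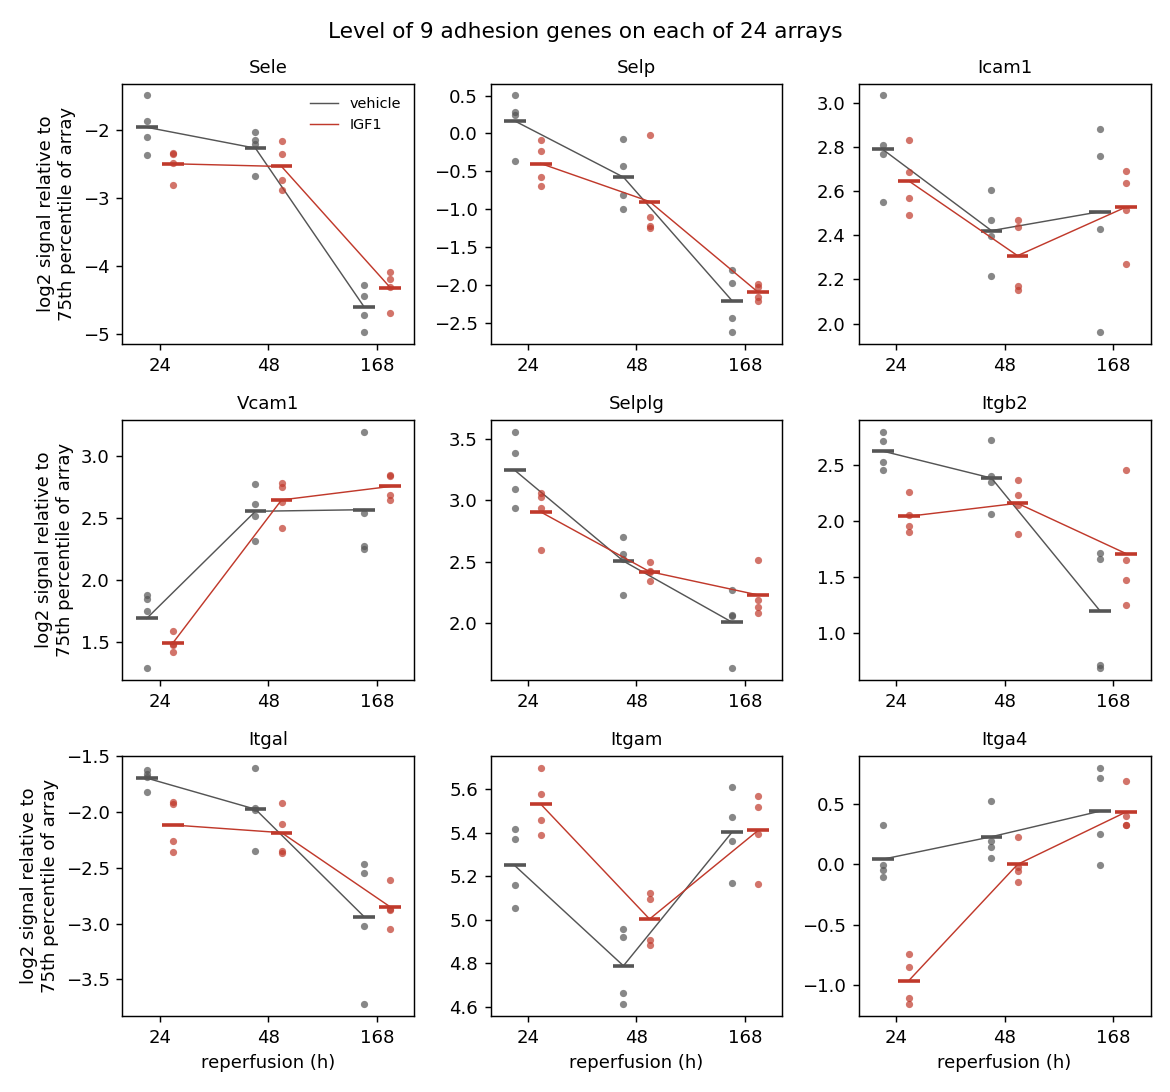
Level of each of the 9 genes (vertical axis, log2 signal minus the array's 75th percentile) against the time of reperfusion in hours (horizontal axis, times evenly spaced), in vehicle (grey) and IGF1 (red) hearts. Points are arrays, bars are means of 4 arrays and lines join the means. Sele and Selp end far below their 24 h levels in both treatments, and for Itga4 the 4 IGF1 arrays at 24 h lie from -1.16 to -0.74, below every other array.

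The inducible selectins showed the largest time courses of the 9 genes. Sele encodes E-selectin, which endothelium makes on cytokine stimulation. In vehicle hearts its level was -2.37, -1.49, -2.10 and -1.87 at 24 h, -2.21, -2.15, -2.03 and -2.68 at 48 h, and -4.98, -4.28, -4.44 and -4.72 at 168 h. With IGF1 it was -2.36, -2.81, -2.34 and -2.49 at 24 h, -2.36, -2.74, -2.17 and -2.89 at 48 h, and -4.69, -4.31, -4.09 and -4.19 at 168 h. The 24 and 48 h arrays overlapped, and every 168 h array lay below all of them. From 24 to 168 h Sele fell by 2.64 ± 0.20 (SE) on the log2 scale in vehicle hearts, which is 6.25-fold (limma, adjusted p = 1.12e-09), and by 1.82 ± 0.20 in IGF1 hearts, 3.54-fold (adjusted p = 1.99e-07). At 168 h the Sele probe was well above background on only 2 of the 4 vehicle arrays and 3 of the 4 IGF1 arrays, so its lowest values lie near the background of the array. With another background correction (normexp) the difference in vehicle hearts was -1.37 and that in IGF1 hearts was -0.89, both still past the threshold. That correction was run with an added offset of 50 intensity units, which by itself makes log2 differences of dim probes smaller.

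Selp encodes P-selectin, which is stored in endothelial cells and platelets and released to the surface on activation. Its level in vehicle hearts was -0.36, 0.28, 0.50 and 0.25 at 24 h, -0.43, -0.81, -0.07 and -1.003 at 48 h, and -1.80, -2.63, -2.44 and -1.98 at 168 h. Under IGF1 the values were -0.23, -0.58, -0.70 and -0.08 at 24 h, -0.02, -1.22, -1.11 and -1.25 at 48 h, and -2.21, -2.17, -2.03 and -1.99 at 168 h. As for Sele, every 168 h array of Selp was below every earlier array of either treatment. The decline from 24 to 168 h was -2.38 ± 0.26 in vehicle hearts (5.19-fold, limma, adjusted p = 1.3e-07) and -1.70 ± 0.26 in IGF1 hearts (3.25-fold, adjusted p = 1.08e-05). Between 24 and 48 h Selp fell by 0.74 in vehicle hearts with overlapping groups (adjusted p = 0.0447). That call was lost in 10 of 22 alternative settings, among them leaving out any 1 of 3 vehicle arrays at 24 h (replicates 2, 3 and 4) or any 1 of 3 at 48 h (replicates 1, 2 and 4), with an adjusted p between 0.0614 and 0.14. All 3 Selp probes moved together, with r = 0.97 and 0.98 to the brightest probe over the 24 arrays, which share their time and treatment groups.

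The start regions of these selectin genes, and of Icam1, none of whose differences passed the test, are printed because Sele and Selp moved together with time. The table of promoters held 5 of the 9 genes (Sele, Selp, Icam1, Itgam and Itga4), and the sequences are the 150 bases before the annotated start from RefSeq, build GRCm38.p6. Capitals mark matches to the AP-1 motif TGANTCA or to the STAT motif TTCNNNGAA. The regions are chr1:164048084-164048233 (plus strand) for Sele, chr1:164115114-164115263 (plus strand) for Selp and chr9:21015790-21015939 (plus strand) for Icam1.
Sele: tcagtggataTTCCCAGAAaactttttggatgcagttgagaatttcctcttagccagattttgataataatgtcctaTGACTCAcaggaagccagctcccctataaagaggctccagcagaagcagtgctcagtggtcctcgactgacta
Selp: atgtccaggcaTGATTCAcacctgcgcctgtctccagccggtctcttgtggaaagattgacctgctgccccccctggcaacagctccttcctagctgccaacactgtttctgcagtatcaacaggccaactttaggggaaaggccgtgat
Icam1: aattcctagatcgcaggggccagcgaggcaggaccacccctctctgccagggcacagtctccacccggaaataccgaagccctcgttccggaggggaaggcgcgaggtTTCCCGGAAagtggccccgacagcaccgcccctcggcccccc

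Each of 6 motifs was searched on both strands over the 250 bases before the start. Sele held an AP-1 match at 73 to 67 bases before the start, a STAT match at 140 to 132, the TATA motif TATAAA at 49 to 44 and the ETS motif GAGGAA on the minus strand at 107 to 102. Selp held an AP-1 match at 139 to 133 bases before its start, and Icam1 held a STAT match at 42 to 34. Of 32851 mouse promoters, 6.75% held the AP-1 motif, 7.02% the STAT motif, 12.4% TATAAA and 23.3% GAGGAA in the same window. Itgam held GAGGAA at 84 to 79 and, on the minus strand, at 15 to 10, and Itga4 held none of the 6 motifs. No match to the NF-kB motif (held by 7.25% of promoters) or to the FoxO motif GTAAACA (held by 3.17%) was found in the 5 windows. These matches are descriptions of letters and overlapped no other motif of the search within a gene.

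The immunoglobulin-family ligands behaved unlike the selectins. Icam1 encodes ICAM-1, the ligand of the beta2 integrins on endothelium and on other activated cells. Its level was 2.77, 2.81, 3.03 and 2.55 at 24 h, 2.61, 2.40, 2.47 and 2.21 at 48 h, and 2.88, 2.43, 2.76 and 1.96 at 168 h in vehicle hearts. The IGF1 arrays read 2.49, 2.83, 2.69 and 2.57 at 24 h, 2.44, 2.17, 2.47 and 2.15 at 48 h, and 2.64, 2.51, 2.69 and 2.27 at 168 h. The vehicle groups overlapped at all times, and in IGF1 hearts the 48 h arrays lay just below the 24 h arrays. No Icam1 difference passed the test. That from 24 to 168 h was -0.28 in vehicle hearts (95% interval -0.62 to 0.05, limma, adjusted p = 0.133) and -0.12 in IGF1 hearts (-0.45 to 0.22, adjusted p = 0.549). A dimmer Icam1 probe gave -0.36 in vehicle hearts (adjusted p = 0.0418), and leaving out vehicle replicate 1 at 168 h also brought the brighter probe past the threshold (adjusted p = 0.0338).

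Vcam1 encodes VCAM-1, the ligand of VLA-4. In vehicle hearts its level was 1.75, 1.84, 1.29 and 1.88 at 24 h, 2.61, 2.51, 2.77 and 2.31 at 48 h, and 3.19, 2.25, 2.54 and 2.27 at 168 h. IGF1 hearts gave 1.48, 1.58, 1.42 and 1.48 at 24 h, 2.78, 2.75, 2.63 and 2.42 at 48 h, and 2.83, 2.85, 2.64 and 2.69 at 168 h. Each 48 and 168 h array was above each 24 h array, and the 48 and 168 h arrays overlapped. Vcam1 rose from 24 to 48 h by 0.86 ± 0.16 in vehicle hearts (1.82-fold, limma, adjusted p = 0.00101) and by 1.15 ± 0.16 in IGF1 hearts (2.22-fold, adjusted p = 2.42e-05). From 48 to 168 h the differences were 0.01 (adjusted p = 0.956) and 0.11 (adjusted p = 0.613). The size of the rise depended on the probe. A second Vcam1 probe, whose mean level was -1.47, gave 0.09 (adjusted p = 0.751) in vehicle hearts and 0.37 (adjusted p = 0.0885) in IGF1 hearts from 24 to 48 h. From 24 to 168 h the brighter probe gave 0.88 (adjusted p = 0.000108) and 1.26 (adjusted p = 1.53e-06), and the second probe gave 0.23 (adjusted p = 0.253) and 0.62 (adjusted p = 0.0032). Both probes are assigned to the same transcript, and they correlated with r = 0.69 over the 24 arrays.

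Within each array, Icam1 minus Vcam1 asks whether the ligands changed unequally. It was 1.10 ± 0.46 (SD, n = 4) in vehicle and 1.16 ± 0.12 in IGF1 hearts at 24 h, -0.13 ± 0.12 and -0.34 ± 0.18 at 48 h, and -0.06 ± 0.29 and -0.22 ± 0.20 at 168 h. Over both treatments it was lower by 1.36 at 48 h than at 24 h, and by 1.27 at 168 h, with adjusted p = 0.00327 for each (exact two-sided permutation test stratified by treatment, adjusted over 24 tests). With the dimmer probes of both genes these changes shrank to -0.53 and -0.67, and both still passed. Sele minus Selp did not pass the same test. It changed by 0.45 from 24 to 48 h (adjusted p = 0.0623) and by -0.19 from 24 to 168 h (adjusted p = 0.465), and with normexp correction the second of these was 0.41 and past the threshold (adjusted p = 0.0476).

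Of the leukocyte partners, Selplg encodes PSGL-1, the ligand of the selectins on leukocytes. In vehicle hearts its level was 3.39, 2.94, 3.56 and 3.10 at 24 h, 2.70, 2.56, 2.52 and 2.23 at 48 h, and 2.27, 1.63, 2.07 and 2.05 at 168 h. The corresponding IGF1 levels were 2.60, 3.06, 3.03 and 2.94 at 24 h, 2.50, 2.34, 2.42 and 2.42 at 48 h, and 2.08, 2.51, 2.13 and 2.18 at 168 h. In both treatments every 48 h array was below every 24 h array. Selplg fell from 24 to 48 h by 0.74 ± 0.15 in vehicle hearts (limma, adjusted p = 0.00144) and by 0.49 ± 0.15 in IGF1 hearts (adjusted p = 0.0142). In vehicle hearts it fell by a further 0.50 to 168 h (adjusted p = 0.0076), a call that was lost with the slide as a block (-0.36, adjusted p = 0.132). In IGF1 hearts the difference from 48 to 168 h was -0.19 (adjusted p = 0.301). From 24 to 168 h Selplg fell by 1.24 ± 0.15 in vehicle hearts (limma, adjusted p = 4.21e-07) and by 0.68 ± 0.15 in IGF1 hearts (adjusted p = 0.000538).

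Itgb2 encodes the beta2 chain shared by LFA-1 and Mac-1. In vehicle hearts its level was 2.52, 2.72, 2.80 and 2.46 at 24 h, 2.72, 2.40, 2.35 and 2.06 at 48 h, and 1.72, 0.68, 0.71 and 1.66 at 168 h. With IGF1 it was 1.95, 2.26, 2.05 and 1.90 at 24 h, 2.15, 2.23, 2.37 and 1.88 at 48 h, and 1.25, 2.45, 1.47 and 1.65 at 168 h. The vehicle arrays at 168 h were uneven, with 1.72 and 1.66 on one side and 0.68 and 0.71 on the other, all below the earlier vehicle arrays, and IGF1 replicate 2 at 168 h was the highest IGF1 array of all times. From 24 to 168 h Itgb2 fell by 1.43 ± 0.24 in vehicle hearts (2.70-fold, limma, adjusted p = 3.16e-05). In IGF1 hearts the same difference was -0.34 ± 0.24 (95% interval -0.84 to 0.17, adjusted p = 0.246). Without IGF1 replicate 2 at 168 h it was past the threshold (adjusted p = 0.0305), and the difference from 48 to 168 h passed as well (adjusted p = 0.0138).

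Itgal encodes the alpha chain of LFA-1. Its level in vehicle hearts was -1.82, -1.69, -1.62 and -1.66 at 24 h, -1.97, -1.98, -1.605 and -2.35 at 48 h, and -2.55, -3.72, -3.02 and -2.47 at 168 h. Under IGF1 the values were -1.94, -1.92, -2.26 and -2.36 at 24 h, -1.93, -2.11, -2.35 and -2.37 at 48 h, and -3.05, -2.88, -2.61 and -2.87 at 168 h. Each 168 h array was below all 24 and 48 h arrays. Itgal fell from 24 to 168 h by 1.24 ± 0.21 in vehicle hearts (2.36-fold, limma, adjusted p = 2.84e-05) and by 0.73 ± 0.21 in IGF1 hearts (1.66-fold, adjusted p = 0.00463). Across the 24 arrays, which share time and treatment, Itgal and Itgb2 correlated with r = 0.84. Their within-array difference changed by -0.10 from 24 to 168 h (exact stratified permutation test, adjusted p = 0.683), and the sign turned to 0.19 with normexp correction.

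Itgam encodes the alpha chain of Mac-1, also known as CD11b, and its probes disagreed. The brighter probe, A_55_P1977934, had a level of 5.16, 5.05, 5.37 and 5.42 at 24 h, 4.66, 4.61, 4.92 and 4.96 at 48 h, and 5.17, 5.36, 5.47 and 5.61 at 168 h in vehicle hearts. The IGF1 arrays read 5.58, 5.39, 5.46 and 5.70 at 24 h, 4.89, 5.12, 4.91 and 5.10 at 48 h, and 5.52, 5.17, 5.40 and 5.57 at 168 h. The 48 h arrays were thus the lowest in both treatments. By that probe Itgam fell from 24 to 48 h by 0.46 in vehicle hearts (limma, adjusted p = 0.00741) and by 0.53 in IGF1 hearts (adjusted p = 0.00145). It then rose by 0.62 (adjusted p = 0.000154) and by 0.41 (adjusted p = 0.00629) to 168 h.

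The dimmer Itgam probe, A_55_P1977926, is assigned to another transcript record of the gene. Its level was -2.69, -3.33, -2.39 and -2.13 at 24 h, -3.38, -3.78, -2.24 and -3.24 at 48 h, and -3.90, -3.80, -4.19 and -2.96 at 168 h in vehicle hearts. IGF1 hearts gave -2.49, -2.79, -2.53 and -3.39 at 24 h, -3.44, -3.35, -3.14 and -3.998 at 48 h, and -3.66, -4.01, -3.38 and -3.44 at 168 h. From 24 to 168 h that probe fell by 1.08 in vehicle hearts (limma, adjusted p = 0.00632) and by 0.82 in IGF1 hearts (adjusted p = 0.032), where the brighter probe gave 0.15 (adjusted p = 0.266) and -0.12 (adjusted p = 0.396). The probes correlated with each other with r = 0.16 over the 24 arrays. The dimmer probe correlated with Itgb2 with r = 0.49, with Itgal with r = 0.68 and with the neutrophil marker S100a8 with r = 0.64, whereas the brighter probe gave -0.50, -0.35 and -0.29. The files hold no value that settles which probe measures the Itgam transcript of leukocytes, so no direction over 24 to 168 h is given for Itgam.

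**Figure D2:**
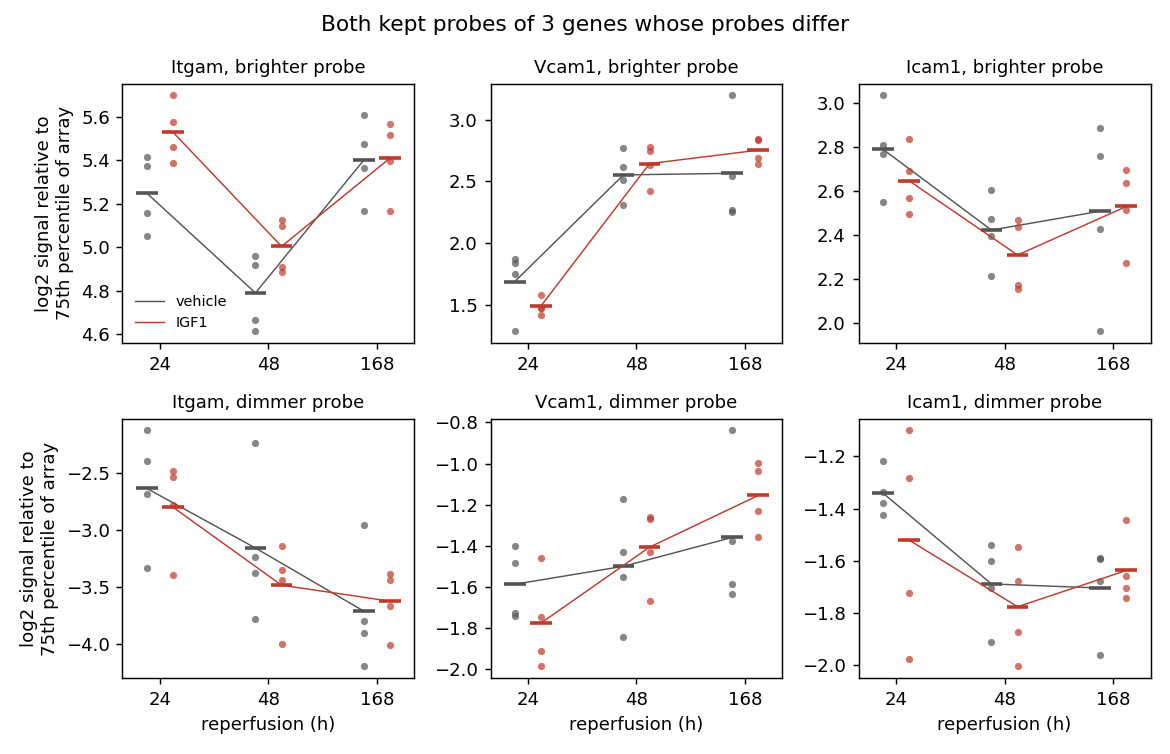
Level of the brighter (upper row) and the dimmer (lower row) kept probe of Itgam, Vcam1 and Icam1 (vertical axis, log2 signal minus the array's 75th percentile) against the time of reperfusion in hours (horizontal axis, times evenly spaced). Points are arrays in vehicle (grey) and IGF1 (red) hearts, bars are means of 4 arrays and lines join them. The brighter Itgam probe is lowest at 48 h while the dimmer probe declines to 168 h, and the rise of the brighter Vcam1 probe to 48 h is much smaller on the dimmer one.

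Itga4 encodes the alpha4 chain of VLA-4, and it rose with time where Itgb2 did not. Its level in vehicle hearts was -0.10, -0.0023, -0.045 and 0.32 at 24 h, 0.15, 0.20, 0.52 and 0.05 at 48 h, and 0.80, -0.0001, 0.25 and 0.72 at 168 h. The corresponding IGF1 levels were -0.74, -1.16, -0.85 and -1.11 at 24 h, -0.15, -0.055, 0.22 and -0.018 at 48 h, and 0.32, 0.69, 0.33 and 0.40 at 168 h. The vehicle groups overlapped, while in IGF1 hearts each later group lay wholly above the one before. In IGF1 hearts Itga4 rose by 0.96 ± 0.16 from 24 to 48 h (limma, adjusted p = 0.000108), by 0.44 ± 0.16 from 48 to 168 h (adjusted p = 0.0282) and by 1.40 ± 0.16 over the whole period (2.64-fold, adjusted p = 2.43e-07). In vehicle hearts the rise over the whole period was 0.40 ± 0.16 (adjusted p = 0.0358). The vehicle call was lost in 11 of 21 alternative settings, and the later IGF1 call in 6 of 21.

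Itga4 minus Itgb2 within each array was -2.58 ± 0.31 (SD, n = 4) in vehicle and -3.00 ± 0.31 in IGF1 hearts at 24 h. At 168 h it was -0.75 ± 0.22 and -1.27 ± 0.35. Over both treatments it was higher by 0.64 at 48 h than at 24 h (exact stratified permutation test, adjusted p = 0.0118) and by 1.78 at 168 h than at 24 h (adjusted p = 0.00327). The alpha4 partner Itgb1 differed by -0.34 from 24 to 168 h in vehicle hearts (adjusted p = 0.00252) and by -0.21 in IGF1 hearts (adjusted p = 0.0523).

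By number, 4 members passed the test from 24 to 48 h in vehicle hearts (1 higher, 3 lower), against 22.7% of all genes (11.2% higher, 11.5% lower), and 4 in IGF1 hearts (2 higher, 2 lower), against 37.6% (16.3% higher, 21.3% lower). From 48 to 168 h it was 6 members in vehicle hearts (1 higher, 5 lower), against 53.2% (25% higher, 28.1% lower), and 5 in IGF1 hearts (2 higher, 3 lower), against 48.8% (22.6% higher, 26.2% lower). From 24 to 168 h it was 7 in vehicle hearts (2 higher, 5 lower), against 60.2% (28.1% higher, 32.1% lower), and 6 in IGF1 hearts (2 higher, 4 lower), against 58.5% (24.6% higher, 33.9% lower). Itgam was counted by its brighter probe, as lower from 24 to 48 h and higher from 48 to 168 h in both treatments. By the dimmer probe it passed in none of these, and from 48 to 168 h it changed by -0.55 in vehicle and -0.14 in IGF1 hearts. From 24 to 168 h the dimmer probe passed as lower in both treatments. The counts of other members also depend on the probe. The second Vcam1 probe passed only from 24 to 168 h in IGF1 hearts. The second Selp probe did not pass from 24 to 48 h in vehicle hearts, and that of Icam1 passed as lower from 24 to 168 h there. With 9 members the counts are small, and they are given as a description only. The median change of the members from 24 to 168 h was -1.24 in vehicle hearts and -0.34 in IGF1 hearts, beside -0.03 and -0.09 over all genes.

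**Figure D3:**
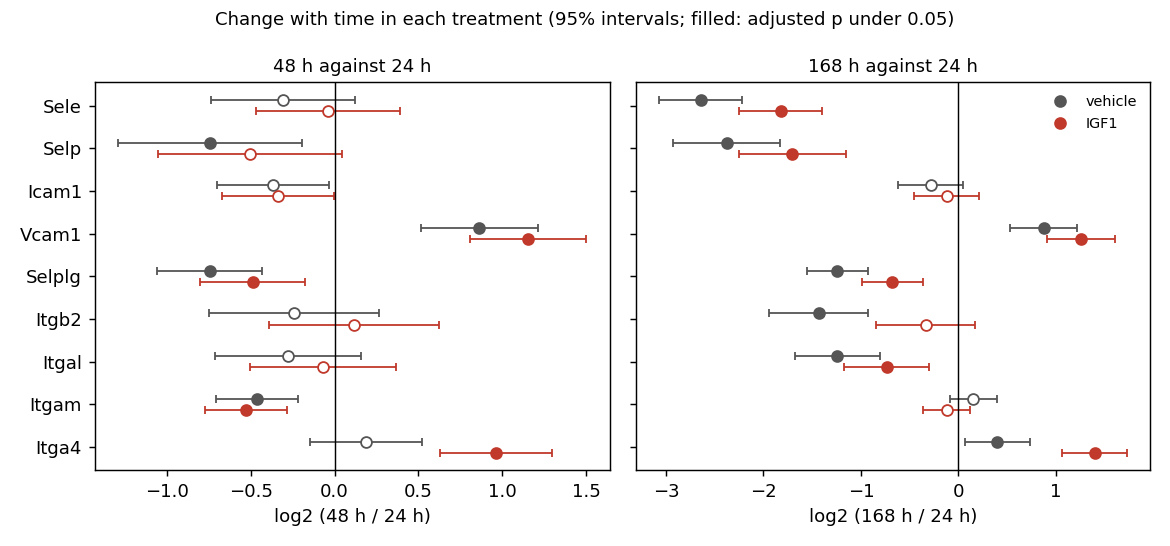
Change of each gene from 24 to 48 h and from 24 to 168 h (horizontal axes, log2 difference of group means) in vehicle (grey) and IGF1 (red) hearts. Points are the estimates of the model, bars are 95% intervals, and filled points have an adjusted p under 0.05. Sele and Selp lie farthest to the left at 168 h in both treatments, and Vcam1 and Itga4 lie to the right.

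The comparison of IGF1 with vehicle asks whether the growth factor altered the adhesion genes. At 24 h 1 of 9 members passed, against 16% of all genes (7.26% were lower), and it was Itga4, which was lower in IGF1 hearts. Each IGF1 array was below each vehicle array (-1.16 to -0.74 against -0.10 to 0.32). The difference was -1.01 ± 0.16, or 2.01-fold (95% interval -1.34 to -0.67, limma, adjusted p = 0.00092). On the 4 slides, each of which held 1 vehicle and 1 IGF1 array of that time, it lay between -1.43 and -0.64. It passed in all 21 alternative settings, with an adjusted p between 0.000455 and 0.0137. All of them used the same Itga4 probe. Another probe of the gene was well above background on only 2 of the 24 arrays and was not kept, so the difference rests on 1 probe. Itgb1, which pairs with Itga4, differed by -0.09 (adjusted p = 0.516).

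The groups did not overlap for 3 of 9 members at 24 h, all with IGF1 below vehicle, against 18.4% of all genes (8.31% below). Besides Itga4 these were Itgb2, with a difference of -0.58 (95% interval -1.09 to -0.08, limma, adjusted p = 0.106), and Itgal, with -0.42 (-0.86 to 0.02, adjusted p = 0.179). Within the 4 slides Itgb2 lay between -0.75 and -0.46 and Itgal between -0.70 and -0.11, below 0 on all 4. The selectins gave -0.54 for Sele (adjusted p = 0.0771) and -0.56 for Selp (adjusted p = 0.149), with overlapping groups, and each was positive on 1 slide of 4. Sele passed with normexp correction (adjusted p = 0.0336) and without vehicle replicate 1 (adjusted p = 0.0417). Itgb2 passed in 1 of 21 alternative settings (limma, adjusted p = 0.031), and the brighter Itgam probe passed as higher in 2 of 22. Icam1 gave -0.14 (-0.48 to 0.19, adjusted p = 0.586), Vcam1 -0.20 (-0.55 to 0.15, adjusted p = 0.447) and Selplg -0.34 (-0.65 to -0.03, adjusted p = 0.124). Itgam gave 0.28 by the brighter probe (adjusted p = 0.104) and -0.16 by the dimmer one (adjusted p = 0.772). The median difference of the 9 members was -0.42, beside 0.01 over all genes.

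At 48 h no member passed (limma, against 0.0126% of all genes), and 0 had an unadjusted p under 0.05. The differences lay between -0.32 for Selp and 0.21 for Itgam. Without IGF1 replicate 1, which stood apart for Selp, that of Selp was -0.61 (adjusted p = 0.448), and without vehicle replicate 3 it was -0.15 (adjusted p = 0.963). Itga4 gave -0.23 (95% interval -0.56 to 0.10, adjusted p = 0.713). At 168 h no member passed either (limma, against 0% of all genes), and 1, Itgb2, had an unadjusted p under 0.05. Its difference was 0.51 (95% interval 0.01 to 1.02, adjusted p = 1). The other members lay between -0.01 for Itga4 and 0.28 for Sele. At that time the median difference of the members was 0.11, beside -0.006 over all genes.

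As a mean over the 3 times, 1 member passed, again Itga4, against 0.472% of all genes. Its mean difference was -0.41 ± 0.09 (limma, adjusted p = 0.0475), and the call was lost in 25 of 36 alternative settings, with an adjusted p of up to 0.0975. The test of whether the effect of IGF1 differed between times passed for 1 member, against 5.6% of all genes. It was Itga4 (limma F-test, adjusted p = 0.0244), and without vehicle replicate 2 at 24 h the adjusted p was 0.0521. For Itgb2 the same test gave an adjusted p of 0.111. Without vehicle replicate 1 at 168 h it gave 0.0468. The comparisons at each time and the changes with time share their arrays, so they are not independent of each other.

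**Figure D4:**
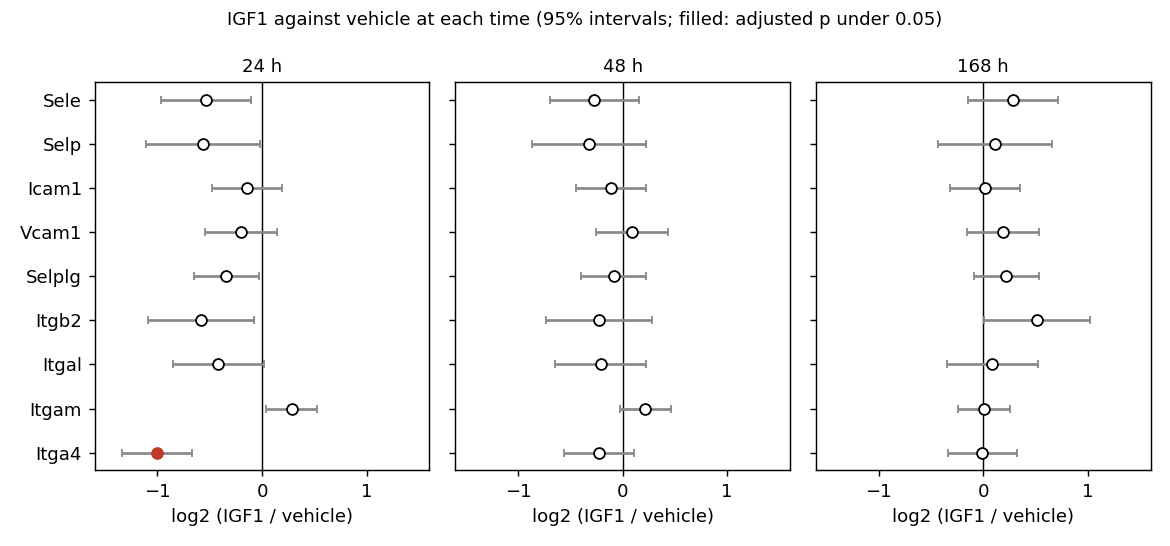
Difference between IGF1 and vehicle hearts (horizontal axes, log2 difference of group means) for each of the 9 genes at 24, 48 and 168 h. Points are the estimates of the model, bars are 95% intervals, and the filled point has an adjusted p under 0.05. Itga4 at 24 h, at -1.01, is the only filled point.

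General leukocyte transcripts moved in the same comparison. Over all genes 16% passed at 24 h and 7.26% were lower. Of 10 pan-leukocyte markers, 9 were lower in IGF1 hearts at 24 h and none was higher, with a median difference of -0.59. The mean level of that list lay between 3.40 and 3.57 on the vehicle arrays and between 2.78 and 3.01 on the IGF1 arrays. Ptprc (CD45), carried by all leukocytes, gave -0.86 (limma, adjusted p = 0.000363), and Csf1r, a marker of monocytes and macrophages, gave -0.59 (adjusted p = 0.000978). Of 15 monocyte and macrophage markers 7 were lower and 1 was higher, and of 12 T and NK cell markers 7 were lower. The mean level of 7 dendritic cell markers at 24 h was -1.08 in vehicle and -2.10 in IGF1 hearts. That of 5 B cell markers was -1.69 and -2.48. None of 11 neutrophil markers and none of 12 endothelial markers passed, with median differences of 0.05 and 0.09. Of 10 cardiomyocyte markers 5 were higher, with a median of 0.34. Over the 24 arrays Itga4 correlated with Csf1r with r = 0.80 and with Ptprc with r = 0.78. The part of these shifts in the Itga4 difference was not tested.

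The same markers moved with time in other ways. From 24 to 168 h in vehicle hearts 8 of 11 neutrophil markers were lower, with a median of -4.35. Over all genes 32.1% were lower and 28.1% higher there, and 33.9% and 24.6% in IGF1 hearts. The mean neutrophil level lay between 2.15 and 2.86 on the vehicle arrays at 24 h and between -2.69 and 0.24 at 168 h. S100a8, a calcium-binding protein of neutrophils and monocytes, fell by 7.13 (limma). In the same comparison 9 of 10 pan-leukocyte markers were lower and 5 of 8 platelet markers were lower, with Pf4, a platelet chemokine, at -2.86. In IGF1 hearts 9 of 11 neutrophil markers were lower and 1 was higher, while 2 of 10 pan-leukocyte markers were higher and 4 were lower. Of the endothelial markers 7 of 12 were lower and 1 was higher in each treatment, with medians of -0.29 and -0.25. Sele correlated with S100a8 with r = 0.90 over the 24 arrays and Selp likewise with r = 0.90, as did Itgal with 0.89. The part of neutrophils, platelets or endothelial cells in the declines of Sele, Selp, Itgb2 and Itgal was not tested.

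The members' partners were read from 5 lists of pathway genes. Between IGF1 and vehicle at 24 h, 16% of all genes passed and 7.26% were lower. Of 20 measured genes of integrin activation and signalling, 13 were lower and none higher in IGF1 hearts at 24 h, with a median of -0.55. Among them were Plcg2, a phospholipase of immune receptor signalling (-0.65, limma, adjusted p = 0.000363), the adaptor Fyb (-0.83, adjusted p = 0.000618) and the exchange factor Vav1 (-0.84, adjusted p = 0.000941). Of 16 further leukocyte adhesion receptors 4 were lower and none higher. They were Sirpa (-0.71), Itgax (CD11c, another alpha partner of Itgb2, -1.12), Cd226 (-0.94) and Itgav (-0.32). Of 13 genes that make or carry selectin ligands 3 were lower, namely Gcnt1 (-0.62), Fut4 (-0.43) and Fut7 (-0.53), which encode glycosyltransferases. The sialyltransferase St3gal6 was higher (0.50). None of 14 endothelial adhesion partners passed, with a median of 0.02. Of 16 NF-kB response genes 3 were lower, Traf1 (-0.73), Nfkbie (-0.50) and Nfkb2 (-0.27). At 48 h 1 gene of these 5 lists passed, the cytokine gene Il6 of the NF-kB list, which was lower in IGF1 hearts with a difference of -2.48 (5.58-fold, limma, adjusted p = 0.00648) and groups that did not overlap. At 168 h none passed.

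With time, the integrin signalling list fell in vehicle hearts, where 15 of 20 genes were lower and 2 higher from 24 to 168 h, with a median of -0.72. Over all genes 32.1% were lower and 28.1% higher in that comparison. The kinases Fgr (-2.36) and Syk (-1.08), the small GTPase Rap1b (-0.72) and the adaptor Skap2 (-1.07) were lower. In IGF1 hearts 7 of the 20 were lower and 4 higher, with a median of -0.10, against 33.9% lower and 24.6% higher over all genes. Of the 16 adhesion receptors 8 were lower and 4 higher in vehicle hearts. Itga5 fell by 1.90 and the hyaluronan receptor Cd44 by 1.67, while Itgb5 rose by 1.51. Of the selectin ligand genes 6 of 13 were lower and 3 higher in vehicle hearts, with Cd24a at -2.95, Gcnt1 at -1.59, Fut7 at -1.26 and Tpst2 at -0.51. Of the 14 endothelial partners 5 were higher and 4 lower, near the shares over all genes, including Cx3cl1 (1.73), Cd34 (1.13), Jam3 (0.53) and Ackr1 (-1.06). In the NF-kB list 11 of 16 were lower and none higher in vehicle hearts, including the chemokine genes Ccl2 (-4.20), Cxcl1 (-3.57) and Cxcl2 (-3.54) and Nfkb2 (-0.67).

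The tested genes whose courses were most like each member were found by Pearson's r over the 24 arrays, which share 6 groups, so a high r can reflect the group means alone. Nearest to Sele were Manf, Mthfd1 and Lsm2, each with r = 0.97. Nearest to Selp were Rdh10 (0.95), Cd24a (0.94) and Tnfsf14 (0.94), and nearest to Vcam1 were Hs6st2, Bdh2 and Rcn1 (0.97 to 0.96). Icam1 had less close neighbours, namely Nudt16l1 (0.83), Cyb561a3 (0.80) and Dusp16 (0.78). For Selplg they were Pygl, Acap1 and Mxd1 (0.94 to 0.93), for Itgb2 F7 and Slc11a1 (0.96), and for Itgal Pilrb1, Fgr and Pilra (0.95 to 0.93). Those of Itga4 were Lair1 (0.95), Gpr65 (0.94) and Aif1 (0.92), and those of the brighter Itgam probe were Hexim2, Snap25 and Idua (0.98 to 0.97).

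Among the members themselves, Sele and Selp correlated with r = 0.90 over the 24 arrays and with 0.26 once each group's mean had been removed. For Itgal and Itgb2 these values were 0.84 and 0.56, for Selp and Itgal 0.91 and 0.64, for Selplg and Itgb2 0.76 and 0.63, and for Itga4 and Itgb2 -0.11 and 0.59. Thus Itga4 and Itgb2, which moved apart with time, varied together between arrays of the same group.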

How the data were processed

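RNA of 24 heart samples (6 groups of 4) was hybridised to 1-colour Agilent SurePrint G3 Mouse arrays. Per the file headers, the deposited intensity is the background-subtracted processed signal of Agilent Feature Extraction 12.0.3.2, with probes designed on mm9. The authors' deposited table holds log2 values of 33957 probes centred per probe (column medians -0.056 to 0.053). It matched the scanner values to within a residual SD of 0.0013 after that offset and served as an alternative. Here log2 intensity minus the array's 75th percentile (372 to 622 intensity units, over probes after averaging spots) was used. Control and outlier spots were left out. Genes with a probe well above background on at least 4 of 24 arrays were tested, by their brightest probe (4 members had several kept probes). limma 3.58.1 (R 4.3.3) fitted 6 group means with Benjamini-Hochberg adjustment over 15875 genes and a threshold of 0.05, and was tested on simulated data. The number of arrays limits the precision. Promoters of 4 members and any protein sequences were not analysed here.

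The 9 members and the lists were chosen with earlier results of these data known. Named genes were the members, their 3 nearest genes by correlation, a fixed set of markers, and per list up to 4 genes past the threshold with the smallest p. A few genes that this rule names are not reported here. Exact permutation tests compared 6 pairs of members. Replicate numbers were checked for pairing by the correlation of same-numbered deviations from the group means. Every pair exceeded 0.1 only for IGF1 against vehicle at 168 h (0.19 to 0.50), where no member passed with or without a replicate block. Alternatives covered background correction, scaling, filters, probes, slides, pairing, weights and left-out arrays.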

Additional observations from a re-analysis of the deposited data

Results flagged for a closer look

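For Selp in IGF1 hearts at 48 h, replicate 1 stood apart at -0.022, where the other 3 arrays lay between -1.25 and -1.11. Of 54 groups of 4 arrays examined for the 9 genes, 1 had such an array, and chance alone gives about 1 in 20. Without that array, the fall of Selp from 24 to 48 h in IGF1 hearts passed the test (limma, adjusted p = 0.0127), where with it the adjusted p was 0.137. The cause was not tested.

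For Itga4 the effect of IGF1 differed between the times (limma F-test, adjusted p = 0.0244), with a difference of -1.01 at 24 h, -0.23 at 48 h and -0.01 at 168 h. The pan-leukocyte markers differed by a median of -0.59, -0.20 and 0.23 at these times, and their part in it was not tested.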

How the results depend on the processing

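The call of Itga4 at 24 h held in every alternative tried, none of which used another Itga4 probe. The number of members past the threshold (limma) at 24 h was 2 with normexp correction, with the slide as a block, with the replicate block and with only the groups compared. It was between 1 and 2 when 1 array was left out, being 2 without vehicle replicate 1 at 24 h. For the mean of 3 times it was 0 with normexp, quantile normalization, the array median as the scale, no filter, the mean of kept probes, the replicate block and array weights, and 0 to 1 with 1 array left out. For the test of a change between times it was 2 with array weights and 0 to 2 with 1 array left out. It was 2 for vehicle from 24 to 48 h with the mean of kept probes, and 3 for IGF1 from 48 to 168 h with the slide as a block. With 1 array left out it was 3 to 4, 6 and 6 to 7 for vehicle (24 to 48, 48 to 168 and 24 to 168 h), and 4 to 5, 4 to 5 and 6 to 7 for IGF1. It stayed 0 for IGF1 against vehicle at 48 and 168 h.

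The replicate numbers were not shown to pair the samples. At 168 h, replicates 1 to 3 of both treatments lay on slide 1 and replicate 4 of both on slide 4. The check there cannot tell pairing from a shared slide. The replicate block made 2 calls at 24 h, adding Itgam (adjusted p = 0.0366), and took Itga4 from the mean of 3 times (adjusted p = 0.0578). It also brought Icam1 past the threshold from 24 to 48 h in vehicle (adjusted p = 0.0246) and IGF1 hearts (adjusted p = 0.0247) and from 24 to 168 h in vehicle hearts (adjusted p = 0.0393).

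Differences near 0 changed sign under some settings, and so did larger differences of Itgam where its dimmer probe was used. By the brighter Itgam probe the differences from 48 to 168 h were 0.62 in vehicle and 0.41 in IGF1 hearts, both past the threshold. The cause of these sign changes was not tested. Between IGF1 and vehicle at 168 h, Itga4 was 0.021 with normexp, 0.00035 with the 75th percentile over spots and 0.12 with array weights, and Itgam was -0.0053 with normexp, -0.061 with quantile normalization and -0.022 with array weights. Vcam1 from 48 to 168 h in vehicle hearts was -0.039 with the array median or the slide as a block, -0.0080 with the slide as a random block and -0.047 with array weights. In IGF1 hearts Icam1 from 24 to 168 h was 0.033 and Itgam 0.22 with quantile normalization, Itgb2 from 24 to 48 h was -0.038 and Selplg from 48 to 168 h 0.011 with the slide as a block, and Itgal from 24 to 48 h was 0.011 with array weights. The mean of kept probes gave Itgam -0.055 for IGF1 against vehicle at 48 h and -0.46 for vehicle from 24 to 168 h. The second kept probe of Itgam, an alternative added after the data were seen, as was the percentile over spots, gave -0.16, -0.33 and -0.13 for IGF1 against vehicle at 24 h, 48 h and as the mean, -0.55 and -1.08 for vehicle from 48 and from 24 to 168 h, and -0.14 for IGF1 from 48 to 168 h. That of Icam1 gave -0.016 for vehicle from 48 to 168 h.

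With 1 array left out, IGF1 against vehicle at 168 h ranged from -0.16 to 0.15 for Icam1, -0.15 to 0.11 for Itga4, -0.17 to 0.25 for Itgal, -0.071 to 0.090 for Itgam and -0.026 to 0.25 for Selp. As a mean over the times Vcam1 ranged from -0.018 to 0.097. From 48 to 168 h in vehicle hearts Icam1 ranged from -0.040 to 0.27 and Vcam1 from -0.20 to 0.12, and Sele from 24 to 48 h in IGF1 hearts from -0.16 to 0.077.

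Of the within-array pairs, with normexp Itgal minus Itgam as a mean over times (-0.32) and Itgam minus Itgb2 from 24 to 168 h (0.89) passed, each with adjusted p = 0.0476. Itgal minus Itgb2 (0.19) and Sele minus Selp (0.41) changed sign from 24 to 168 h with that correction. Its added offset shrinks the differences of dim probes most, and the part of the offset in these changes was not tested. With the second kept probe of Itgam, Itgal minus Itgam from 24 to 168 h was -0.037 and did not pass, where the brighter probe gave -1.004 (exact permutation test, adjusted p = 0.00735). Itgam minus Itgb2 turned to -0.035 as a mean over times and to -0.066 from 24 to 168 h.

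The array median as the scale moved the median of all genes by -0.11 from 24 to 168 h in vehicle hearts and by -0.10 in IGF1 hearts. It took the share of higher genes among those past the threshold from 46.3% to 36.0% for IGF1 from 48 to 168 h. Signal near background limits Sele at 168 h. The dimmer Itgam probe had a low signal but was well above background on 23 of the 24 arrays.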
